A study of Mus musculus with 6 samples.

Results

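A set of 9 leukocyte adhesion genes were followed across splenic B cells of mice with normal, mutated and deleted Btk. They were the integrin subunits Itgal, Itgam, Itgb2, Itga4, Itgb1 and Itgb7, the immunoglobulin-type ligands Icam1 and Icam2, and the hyaluronan receptor Cd44. Every probe set annotated to 1 of these symbols was taken, which gave 15 of the 12422 probe sets of the array that are not controls, and 9 of 8251 genes named there. Of these 15 probe sets, 12 passed a filter on dim values and stood for 8 genes. The 3 others, the only one of Itgam and 2 of 3 for Cd44, were too dim to test and are described by their values alone.

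Messenger RNA was measured on 6 Affymetrix MG_U74Av2 arrays, 2 for each of 3 groups of adult mice. The first group was wild type CBA. The Xid mice were of strain CBA/N and carry the R28C substitution of Btk. The Btk KO group came from a knockout labelled SW129 that was back-crossed to CBA for 9 generations. All groups were labelled as whole splenic B cells, with no account of their purification in the sources used here. The labels do not say whether 1 RNA came from 1 mouse or from a pool, and the Xid allele sits in a strain of its own. A first set of 3 chips, 1 per group, is called run 1 here, and a second set made from new RNA of new mice is called run 2. The p-values rest on the spread between arrays within the groups, pooled over the 3 groups and drawn towards that of the other probe sets. A group holds only 2 arrays.

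Integrins are paired surface receptors of an alpha and a beta chain that anchor leukocytes to other cells and to matrix. In B cells, alpha L with beta 2 forms LFA-1, which binds the ICAM family, and alpha 4 with beta 1 forms VLA-4, which binds VCAM-1 and fibronectin. Alpha 4 also pairs with beta 7 to bind MAdCAM-1 of gut vessels, and alpha M with beta 2 forms Mac-1, best known from myeloid and natural killer cells. Btk takes part in the signal by which the B cell receptor switches integrins to a state of high affinity, a step at the protein that messenger RNA does not report. The comparison therefore concerns how much of each adhesion transcript the mutant cells held.

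The arrays differed in quality as well as in group. Median intensity lay between 32.5 and 37.6 scaled units on all 6. On the Btk KO array of run 1 the 3' to 5' ratio of the Gapdh controls was 10.4, against at most 1.61 on the other 5, and no other array was hybridised on its day. Btk read 874.1 and 749.8 in CBA, 841.0 and 643.9 in Xid, and 276.1 and 173.6 in Btk KO (runs 1 and 2). The 12 B cell markers on the array, among them Cd79a and Ms4a1, summed to between 18218.2 and 25777.8 per array, and 0 of the 12 passed limma's test in any comparison, although 4 (7 with the run as a block) had an unadjusted p under 0.05 in Btk KO against CBA, against 8.83% and 15.1% of all probe sets. Their median log2 difference there was -0.58. The macrophage and monocyte markers, of which 2 of 17 were dim on every array, summed to 2452.2 and 3665.3 in CBA, 5387.8 and 8192.5 in Xid, and 8081.8 and 11492.9 in Btk KO. Natural killer and cytotoxic markers (9 on the array) summed to 377.6 and 528.5 in CBA, 553.8 and 841.1 in Xid, and 827.7 and 1657.8 in Btk KO. The neutrophil sums (14 markers) were 483.9 and 415.5, 581.3 and 424.3, and 1206.4 and 1860.6 in the same order, and 2 of the 14 were dim on every array. T cell markers (10 on the array, 1 dim on every array) summed to 232.8 and 437 in CBA, 375.1 and 418 in Xid, and 422.1 and 617.8 in Btk KO. Erythroid markers (12 on the array) summed to between 5954.7 and 9473.8 in CBA and Xid and to 23606.6 and 11352.7 in Btk KO. In Btk KO against CBA, 2 of 13 macrophage markers kept by the filter passed limma's test as higher, or 10 with the block. Neutrophil markers passed for 2 of 8, or 4 with the block, natural killer markers for 0 of 9, or 4, and T cell markers for 0 of 6, or 1. An unadjusted p under 0.05 was found for 7 of the 9 natural killer markers in each fit. For the 6 T cell markers it was found for 1, or 2 with the block. Of 11 erythroid markers 0 passed in either fit, but 11 were higher than CBA in both runs, with a median log2 difference of 1.46. In each fit 10 of these 11 had an unadjusted p under 0.05. Over all probe sets 0.174% and 2.23% passed, and 8.83% and 15.1% had an unadjusted p under 0.05. In Xid against CBA, 0 of the 13 macrophage markers passed, or 5 with the block, against 0.0671% and 0.483% of all probe sets. All 13 lay above 0 there, with a median log2 difference of 1.11. The unadjusted p was under 0.05 for 10 of them, or 12 with the block, against 4.43% and 8.1%. In RNA of whole samples, fewer cells of a type and less RNA per cell cannot be told apart.

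Promoters of 6 of the 9 genes were in the RefSeq table used here (GRCm38.p6, 250 bases before to 50 after the start). They were searched for GAGGAA, a core letter string of sites bound by the ETS factor PU.1 of myeloid and B cells, on both strands (TTCCTC on the other). The sequences of 3 genes are shown with matches in capitals. Itgam was chosen for its number of matches and Cd44 because its Xid arrays stood apart. Itgb1 was chosen because its probe sets gave the smallest limma p-values without the block in Btk KO against CBA. Itgam lies at chr7:128062390-128062689 (plus strand), Itgb1 at chr8:128685404-128685703 (plus strand) and Cd44 at chr2:102901616-102901915 (minus strand). Each is written 5′ to 3′ along the gene.
Itgam: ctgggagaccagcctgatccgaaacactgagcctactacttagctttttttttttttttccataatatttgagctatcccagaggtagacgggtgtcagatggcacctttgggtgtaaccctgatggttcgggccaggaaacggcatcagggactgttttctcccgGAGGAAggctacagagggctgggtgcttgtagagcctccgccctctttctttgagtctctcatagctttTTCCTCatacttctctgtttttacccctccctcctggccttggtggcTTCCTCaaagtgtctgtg
Itgb1: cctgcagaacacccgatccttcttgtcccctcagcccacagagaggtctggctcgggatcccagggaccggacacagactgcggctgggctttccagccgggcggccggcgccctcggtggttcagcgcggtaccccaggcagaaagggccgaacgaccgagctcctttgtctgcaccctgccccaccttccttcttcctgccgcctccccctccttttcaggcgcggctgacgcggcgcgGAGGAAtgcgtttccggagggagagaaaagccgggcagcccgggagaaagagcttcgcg
Cd44: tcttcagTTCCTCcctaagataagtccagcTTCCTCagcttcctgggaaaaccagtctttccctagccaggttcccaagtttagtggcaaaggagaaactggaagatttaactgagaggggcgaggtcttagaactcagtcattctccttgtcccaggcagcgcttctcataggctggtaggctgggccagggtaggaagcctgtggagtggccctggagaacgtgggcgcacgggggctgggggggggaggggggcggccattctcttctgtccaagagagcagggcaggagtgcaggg
In Itgam there were 3 matches, whose first bases lie 84 and 15 bases before the start and 32 bases after it. Cd44 held 2 matches, 243 and 220 bases before the start, and Itgb1 held 1, 9 bases before it. Itgb7 held 1 match, and Itga4 and Icam1 held 0 in this window. Of all 32851 promoters in the table, 28.3% held at least 1 match and 0.685% held at least 3. A match describes letters only.

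None of the 12 probe sets of the adhesion genes passed the limma test in any comparison, with or without the run as a block, at an adjusted p under 0.05. In Btk KO against CBA the test called 13 of 7453 probe sets on the array (0.174%), and 166 (2.23%) with the block. At an unadjusted p under 0.05 it held 1 of the 12, against 8.83% of all probe sets, and 3 of the 12 with the block, against 15.1%. In Xid against CBA it called 0.0671% of all probe sets, or 0.483% with the block. There 0 of the 12 had an unadjusted p under 0.05 in either fit, against 4.43% and 8.1% of all. In Btk KO against Xid the called shares were 0.0403% and 0.188%, and 1 and 2 of the 12 lay under the unadjusted threshold, against 3.61% and 7.31%. For the mean of both mutants against CBA they were 0.148% and 1.93%, with 0 and 1 of the 12 under the unadjusted threshold, against 7.37% and 12.7%. With 12 probe sets, none of these counts stood clear of the share of the whole array.

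The median log2 difference over the 8 genes, each by its brightest probe set, was 0.18 in Btk KO against CBA, beside 0.01 over all probe sets. It was -0.05 within run 1 and 0.33 within run 2. In Xid against CBA the median was 0.05, again beside 0.01 over all, and -0.07 and 0.06 within the runs. In Btk KO against Xid it was 0.15 beside 0.00, with 0.09 and 0.31 within the runs. Both mutant groups are set against the same 2 CBA arrays.

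**Figure D1:**
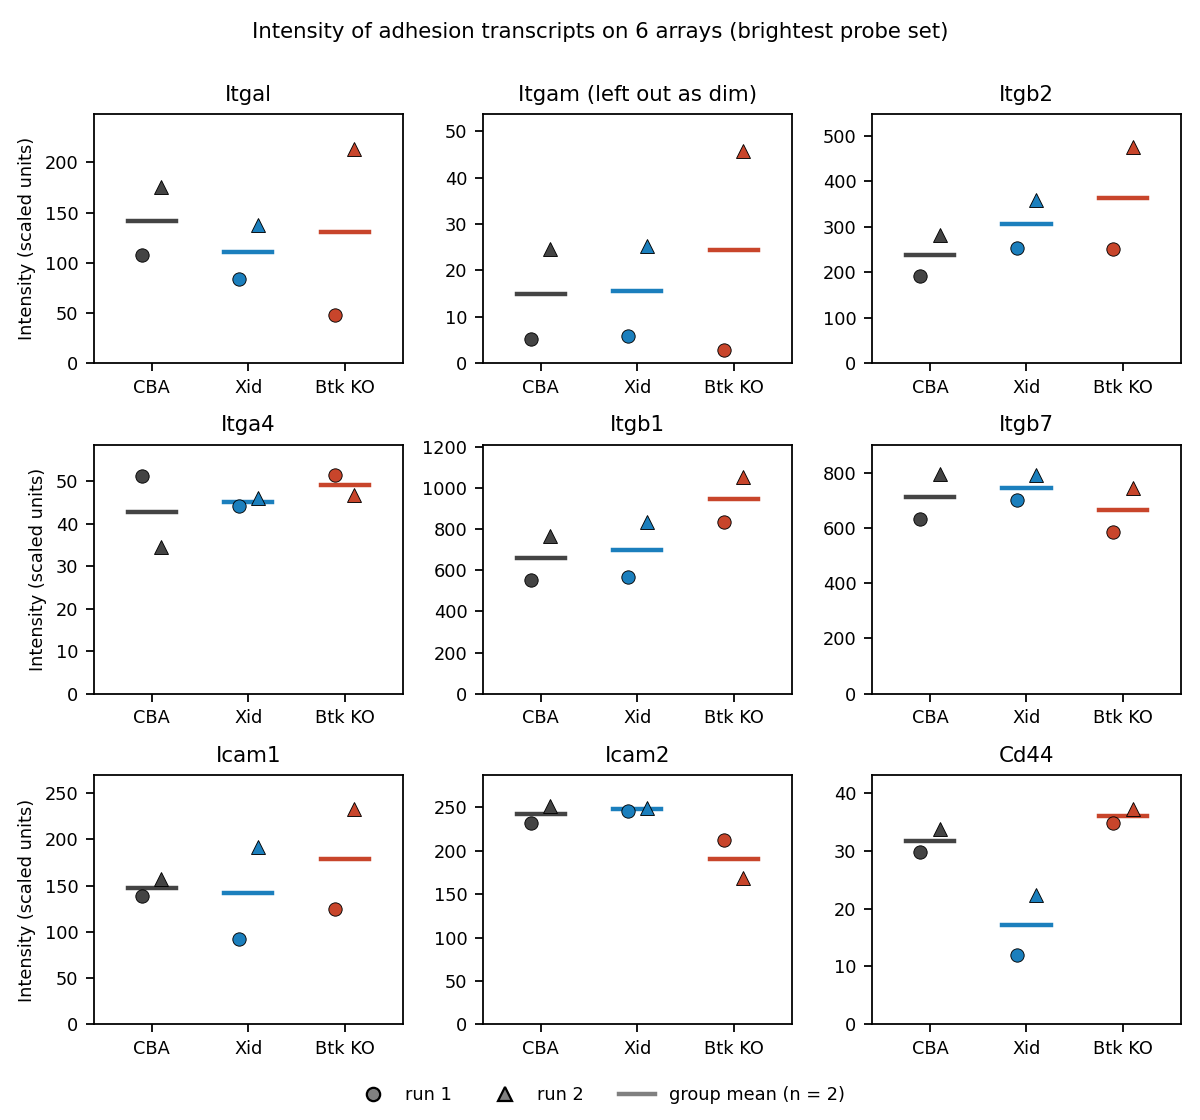
Intensity (scaled units, linear axis from 0) of the brightest probe set of each of the 9 genes on the 6 arrays. Circles are run 1, triangles run 2 and bars group means (n = 2); triangles lie above circles in all 3 groups for Itgal, Itgam, Itgb2, Itgb1, Itgb7, Icam1 and Cd44.

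Itgb2 encodes the beta 2 chain that LFA-1 and Mac-1 share. Its intensity was 192.8 and 282.5 in CBA, 253.9 and 358.2 in Xid, and 250.4 and 475.2 in Btk KO. Within each run both mutant arrays were above CBA, but the groups overlapped because the run 2 CBA array was above the run 1 mutant arrays. The log2 difference was 0.36 for Xid (95% interval -0.46 to 1.18) and 0.55 ± 0.35 (SE) for Btk KO (interval -0.26 to 1.37). The limma adjusted p for Btk KO was 0.74, or 0.18 with the block. For Btk KO the difference was 1.01 without its run 1 array and 0.10 without its run 2 array, and for Xid leaving out 1 array gave between 0.09 and 0.63. The macrophage, natural killer, neutrophil and T cell sums above were also highest in Btk KO within each run. Their part in the Itgb2 values was not tested.

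Itgal encodes alpha L, the partner of beta 2 in LFA-1. Its intensity was 107.4 and 175.1 in CBA, 84.0 and 137.2 in Xid, and 47.5 and 213.3 in Btk KO. The lowest and the highest of all 6 values were the 2 Btk KO arrays, and the lowest was the array with the high 3' to 5' ratio. Xid was below CBA by about the same amount in each run, with a log2 difference of -0.34 (95% interval -1.78 to 1.10, adjusted p = 0.999). Btk KO against CBA gave -0.40 (interval -1.84 to 1.04, adjusted p = 0.92), made of -1.08 in run 1 and 0.28 in run 2. Without the Btk KO array of run 1 the sign turned, to 0.61, and without that of run 2 the value was -1.42. The Xid difference was near 0 without the CBA array of run 2 or the Xid array of run 1.

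Itgam encodes alpha M, the chain that makes Mac-1. Its probe set read 5.2 and 24.6 in CBA, 5.9 and 25.3 in Xid, and 2.8 and 45.8 in Btk KO. All 3 arrays of run 1 were below a mean intensity of about 19.8, under which probe sets were left out, and all 3 of run 2 were above it. The run 2 value was highest in Btk KO, and the run 1 value was lowest there. No test was made for Itgam.

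Itgb1 encodes the beta 1 chain of VLA-4 and of most receptors for matrix. The brighter of its 2 probe sets (marked in its name as shared within a gene family) read 552.2 and 769.0 in CBA, 568.9 and 833.5 in Xid, and 833.3 and 1055.4 in Btk KO. Both Btk KO arrays were above both CBA arrays. The log2 difference of Btk KO from CBA was 0.52 ± 0.27 (SE; 95% interval -0.12 to 1.16; adjusted p = 0.67, or 0.15 with the block), and 0.59 and 0.45 within the runs. Leaving out 1 array gave between 0.28 and 0.76, the ends without the CBA array of run 1 and of run 2. For Xid it was 0.08 (interval -0.56 to 0.72).

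The second Itgb1 probe set is marked in its name as holding fewer than the usual probes. It read 130.2 and 125.1 in CBA, 148.6 and 150.0 in Xid, and 171.2 and 184.6 in Btk KO. No groups overlapped: CBA was lowest, Xid between and Btk KO highest in each run. Btk KO against CBA differed by 0.46 ± 0.19 (SE, log2), with a 95% interval of 0.01 to 0.91 that lay above 0. In limma's test without the block this was the 1 probe set of the adhesion genes under the unadjusted threshold. With the block the brighter Itgb1 probe set was under it too (unadjusted p = 0.010, interval 0.16 to 0.88). So was Itgb2 (unadjusted p = 0.015, interval 0.14 to 0.96). For the second Itgb1 probe set the adjusted p over all probe sets was 0.55 (0.27 with the block). Leaving out any 1 array gave between 0.41 and 0.51. For Xid against CBA the difference was 0.22 (interval -0.23 to 0.66) and for Btk KO against Xid 0.24 (interval -0.20 to 0.69), so neighbouring groups in this order did not differ beyond their error. Beta 1 is also made by macrophages, natural killer cells and neutrophils, whose mean marker sums were lowest in CBA and highest in Btk KO, and their part in the Itgb1 values was not tested.

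Itga4 encodes alpha 4, the chain shared by VLA-4 and the receptor for MAdCAM-1. Its brightest probe set read 51.1 and 34.4 in CBA, 44.1 and 46.0 in Xid, and 51.4 and 46.7 in Btk KO. The CBA arrays spanned nearly all of the other values. The log2 differences from CBA were 0.09 for Xid (95% interval -0.58 to 0.75) and 0.20 for Btk KO (interval -0.47 to 0.86). The 2 other Itga4 probe sets differed in sign for Btk KO: the brighter of them gave -0.11 and the dimmer 0.52. Without the Btk KO array of run 1 the brighter gave 0.26.

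Itgb7 encodes beta 7, the partner of alpha 4 in gut homing. The brighter probe set read 631.8 and 793.3 in CBA, 699.1 and 791.1 in Xid, and 584.5 and 743.4 in Btk KO. All groups overlapped, and the run 2 array was the higher in each. The log2 differences from CBA were 0.07 for Xid (95% interval -0.44 to 0.58) and -0.10 for Btk KO (interval -0.62 to 0.41). The dimmer probe set read 38.1 and 24.5 in CBA, 41.5 and 39.3 in Xid, and 29.8 and 27.5 in Btk KO. There both Xid arrays were above all others, by 0.34 over CBA (interval -0.39 to 1.07).

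Icam1 encodes a ligand of LFA-1 and Mac-1 that inflammatory signals induce. Its intensity was 138.6 and 157.2 in CBA, 92.7 and 191.4 in Xid, and 124.3 and 233.2 in Btk KO. In both mutants run 1 lay below CBA and run 2 above it, so the runs gave opposite signs. The log2 differences were -0.14 for Xid (95% interval -1.06 to 0.79) and 0.20 for Btk KO (interval -0.73 to 1.13).

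Icam2 encodes a ligand of LFA-1 that is present without stimulation on lymphocytes and vessel lining. It read 232.2 and 251.6 in CBA, 245.6 and 249.2 in Xid, and 212.5 and 168.1 in Btk KO. The 2 Btk KO arrays were the lowest of all 6. Btk KO against CBA gave a log2 difference of -0.34 ± 0.20 (SE; 95% interval -0.82 to 0.13; adjusted p = 0.71), made of -0.12 and -0.57 within the runs. Leaving out 1 Btk KO array gave -0.51 (run 1) or -0.18 (run 2). Xid against CBA gave 0.03 (interval -0.44 to 0.50). The summed B cell markers were lowest in Btk KO too, at 18444.1 and 18218.2, with 4 of the 12 (7 with the block) under the unadjusted threshold, and their part in the Icam2 values was not tested.

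Cd44 encodes the main receptor for hyaluronan and marks activated and memory lymphocytes. Its brightest probe set read 29.7 and 33.7 in CBA, 11.9 and 22.4 in Xid, and 34.8 and 37.1 in Btk KO. Both Xid arrays were below all others and both Btk KO arrays above all others. The log2 difference from CBA was -0.74 ± 0.35 (SE) for Xid (95% interval -1.56 to 0.08, adjusted p = 0.999, or 0.64 with the block) and 0.16 for Btk KO (interval -0.66 to 0.97). Btk KO against Xid gave 0.90 ± 0.35 (SE; interval 0.08 to 1.71) and was under the unadjusted threshold, with 1.19 and 0.60 within the runs. The adjusted p of that difference was 0.998, or 0.57 with the block. Leaving out 1 array gave between -1.07 and -0.41 for Xid against CBA and between 0.56 and 1.23 for Btk KO against Xid, the ends without 1 of the Xid arrays. These intensities lie close to the filter, and with a pseudocount of 32 in place of 6 the same differences were -0.38 and 0.48. The 2 dim Cd44 probe sets read between 0.8 and 13.9 and between 0.3 and 7.9, and were not compared.

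**Figure D2:**
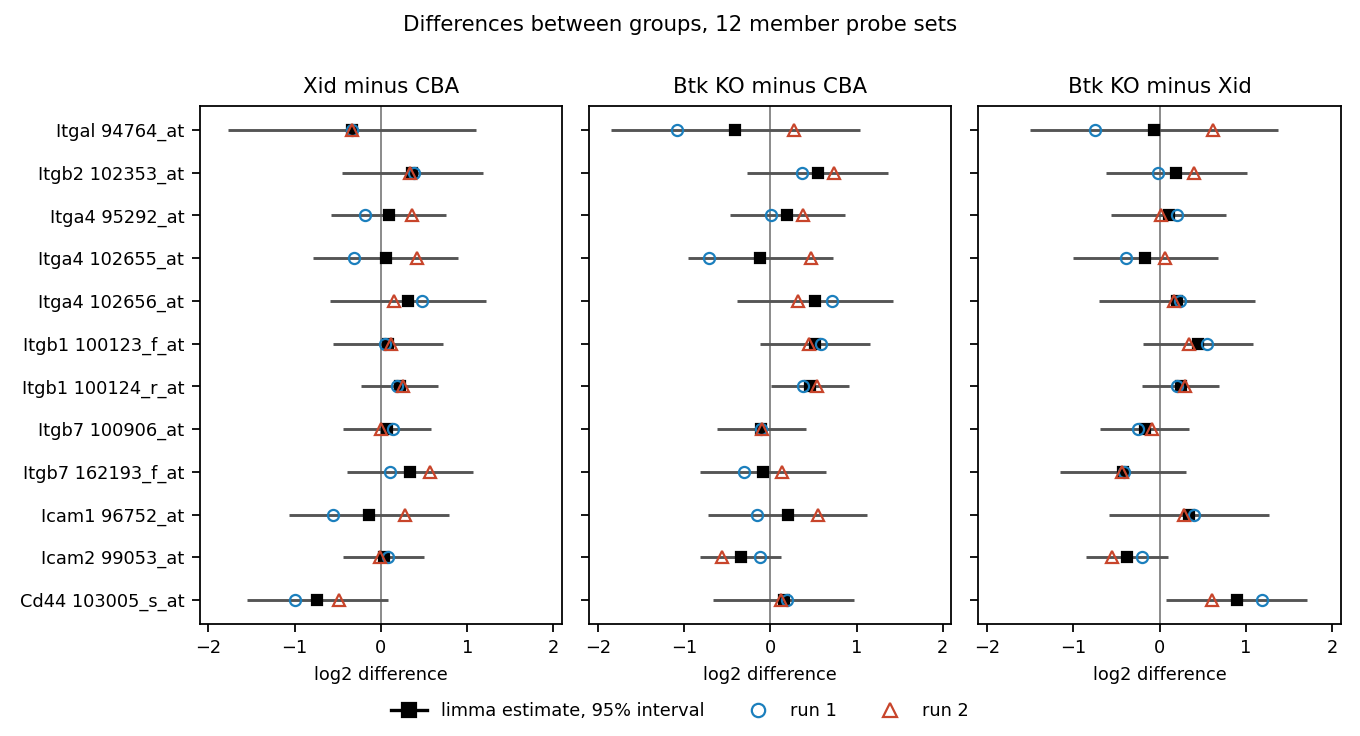
Log2 differences between groups for the 12 probe sets that passed the filter, in 3 panels for Xid minus CBA, Btk KO minus CBA and Btk KO minus Xid. Squares are limma estimates with 95% intervals from the fit without the block, and open symbols the difference within each run. The intervals lie off 0 for the dimmer Itgb1 probe set in Btk KO minus CBA and for Cd44 in Btk KO minus Xid.

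Both arrays of a group above or both below those of CBA were found for 5 of the 12 probe sets in Btk KO (4 above, 1 below), against 36% of all probe sets. In Xid there were 3 of the 12 (2 above, 1 below), against 31.4%. Between Btk KO and Xid there were 5, against 26.5%. The counts for CBA against each mutant lie near the array as a whole.

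The runs were also compared, over all 3 groups. Itgal read higher in run 2 in every group, by 0.68 (CBA), 0.67 (Xid) and 2.04 (Btk KO) on the log2 scale. Itgb2 did so by 0.54, 0.49 and 0.91, and Icam1 by 0.17, 1.0 and 0.88. Over the groups the run difference was 1.13 for Itgal (adjusted p = 0.096), 0.64 for Itgb2 (adjusted p = 0.076) and 0.68 for Icam1 (adjusted p = 0.13), and none of the 12 probe sets passed, against 1.65% of all. With the Btk KO array of run 1 left out, the Itgal difference was 0.67 (adjusted p = 0.14) and that of Itgb2 0.51 (adjusted p = 0.18). Higher values in run 2 in all 3 groups were found for 6 of the 12 probe sets, against 20.8% of the array. Of the dim probe sets, Itgam was higher in run 2 by 1.45 (CBA), 1.40 (Xid) and 2.56 (Btk KO). The macrophage sums were also higher in run 2 in every group, and their part in the run difference was not tested.

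**Figure D3:**
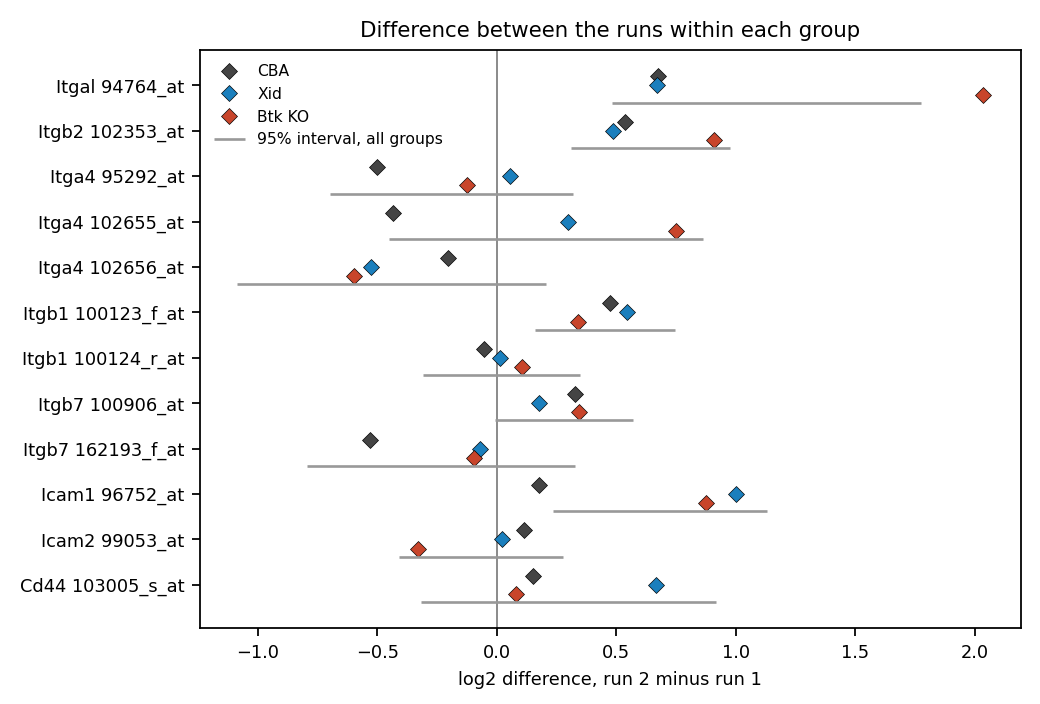
Log2 difference of run 2 minus run 1 for the 12 probe sets. Diamonds are the 3 groups and lines the 95% interval over the groups; the Itgal diamond of Btk KO, at 2.04, is the farthest from 0.

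Of 6 lists of other adhesion genes, 3 held genes that passed in at least 1 fit, namely Vcam1, Itgb5, Cadm1 and Cd47. Of 25 listed integrin ligands, 19 were on the array and 7 passed the filter. In Btk KO against CBA limma's test called 1 of the 7 higher and 0 lower. It was Vcam1, the ligand of VLA-4 on stromal cells and macrophages. Its brightest probe set read 304.7 and 369.9 in CBA, 770.5 and 1064.4 in Xid, and 1765.9 and 1532.0 in Btk KO. The groups did not overlap, and the order was CBA, Xid, Btk KO in both runs. The log2 difference of Btk KO from CBA was 2.27 ± 0.23 (SE; adjusted p = 0.025), and Xid differed by 1.42 (adjusted p = 0.17, or 0.034 with the block). Leaving out any 1 CBA or Xid array ended the Btk KO call, and the adjusted p ran from 0.0053 to 0.39 over 16 alternatives. The 2 other Vcam1 probe sets gave 1.13 and 2.27. The other 6 ligands did not pass: Lamc1 gave -1.50, Col1a1 0.85, Cdh1 0.67, Fn1 (fibronectin) 0.65, F11r 0.60 and Madcam1 -0.48. Of the 7, 4 had an unadjusted p under 0.05 in limma's test of Btk KO against CBA, and 5 with the block. Over all probe sets the shares were 8.83% and 15.1%. The median of the 7 was 0.65, beside 0.01 over all probe sets. Markers of endothelial and stromal cells, which can hold VCAM-1, summed to 630.3 and 555.4 in CBA, 790.0 and 685.7 in Xid, and 801.1 and 739.5 in Btk KO (11 on the array, 5 dim on every array), and their part was not tested.

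Of 20 other integrin subunits, 12 were on the array and 5 passed the filter. Without the block 0 passed limma's test in Btk KO against CBA (3 had an unadjusted p under 0.05, against 8.83% of all probe sets). With the block 1, Itgb5, was called higher and 0 lower. Itgb5 encodes the beta 5 partner of alpha v, a receptor for vitronectin. Its brighter probe set read 13.5 and 47.9 in CBA, 82.6 and 146.3 in Xid, and 136.7 and 171.4 in Btk KO. All mutant arrays were above the CBA arrays. The log2 difference of Btk KO from CBA was 2.30 ± 0.49 (SE; adjusted p = 0.17, or 0.012 with the block). Its second probe set gave -0.38, so the 2 disagree in sign. Itgax, the alpha chain of myeloid and dendritic cells, gave 0.82 and Itgav gave 0.76, and neither passed.

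Among 25 other leukocyte adhesion molecules, 16 of the 17 on the array passed the filter. In Btk KO against CBA limma's test called 1 of them higher. It was Cadm1, an immunoglobulin-type adhesion molecule. Its brightest probe set read 210.7 and 348.7 in CBA, 768.2 and 903.0 in Xid, and 1259.5 and 1148.8 in Btk KO. In this probe set, marked in its name as shared within a gene family, the groups did not overlap and kept the order of Vcam1. Btk KO differed from CBA by 2.12 (log2, adjusted p = 0.041), and 6 of 16 alternatives kept the call, with adjusted p from 0.0064 to 0.39. Leaving out either CBA array, either Xid array or the Btk KO array of run 1 ended it. The 2 other Cadm1 probe sets gave smaller log2 differences of Btk KO from CBA, 0.86 and 1.42. In the first of them the Xid arrays overlapped those of both other groups. In Xid 0 of the 16 genes passed limma's test, and 4 had an unadjusted p under 0.05, against 4.43% of all probe sets. With the block limma's test called 2 higher, Cadm1 (1.60, adjusted p = 0.030) and Cd47 (1.31, adjusted p = 0.023). Cd47, an integrin-associated protein that restrains phagocytosis, read 784.7 and 505.2 in CBA, 1754.6 and 1396.1 in Xid, and 916.7 and 627.1 in Btk KO. Both Xid arrays were above all others, and the second Cd47 probe set gave a smaller 0.50 for Xid. Cd9 of this list went the other way, at -1.38 in Xid and -0.85 in Btk KO. It did not pass limma's test (adjusted p = 0.48 and 0.53). Of the 16 genes, 9 lay above 0 in Xid and 7 in Btk KO.

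The other 3 lists held 0 genes that passed limma's test in any of the 4 comparisons, with or without the block. In Btk KO against CBA the genes with an unadjusted p under 0.05 were 2 for integrin activation, 2 for selectins and 0 for the partners of Cd44. Over all probe sets that share was 8.83%. Integrin activation and adaptors, with 19 genes kept of 23 on the array, had a median log2 difference of -0.06 in Btk KO against CBA and -0.01 in Xid. The smallest p-values of this list in Btk KO against CBA were those of Arap3 (0.91) and Skap2 (0.43). Selectins and their ligands (9 kept of 19) had 0.21 and 0.17, and the smallest p-values in Btk KO against CBA were those of the sialyltransferase St3gal6 (-1.04) and the selectin ligand Selplg (0.70). Partners of Cd44 and hyaluronan enzymes (10 kept of 14) had -0.12 and -0.07, and the smallest p-values in Btk KO against CBA were those of the hyaluronidase Hyal2 (-0.68) and of Nf2 (-0.37). In Btk KO against Xid 1 gene of that list was under the unadjusted threshold of limma's test, against 3.61% of all probe sets. It was the hyaluronan synthase Has3, at 1.37 ± 0.36 (SE, adjusted p = 0.91), with -0.82 for Xid and 0.55 for Btk KO against CBA. The macrophage sums were lowest in CBA and highest in Btk KO in run 1 and in run 2, as were the brightest probe sets of Vcam1, Itgb5 and Cadm1. The second Itgb5 probe set was lowest in Btk KO in both runs. The macrophage mannose receptor Mrc1 read 37.4 and 38.4 in CBA, 99.3 and 145.6 in Xid, and 287.2 and 246.5 in Btk KO. The marker Lyz2 read 195.2 and 151.0 in CBA, 140.7 and 301.4 in Xid, and 275.6 and 343.4 in Btk KO. Its Xid array was thus below CBA in run 1 and above it in run 2. The part of macrophages in those differences was not tested.

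**Figure D4:**
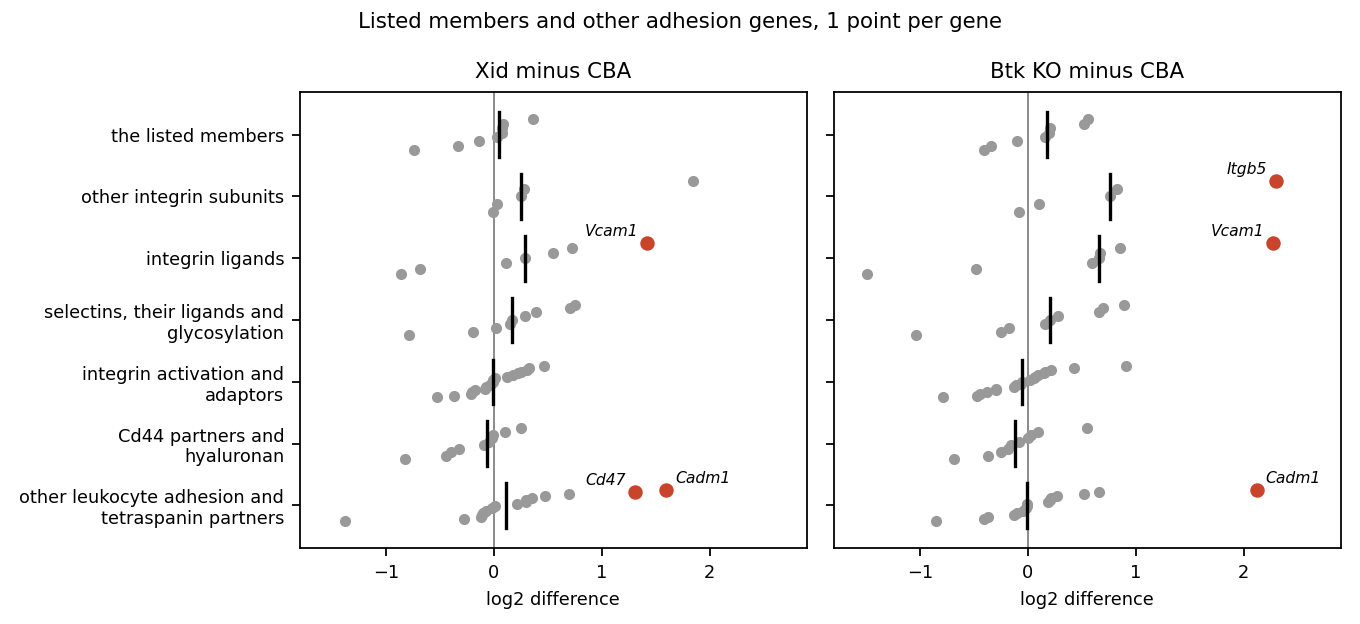
Log2 differences from CBA for the listed genes and for 6 lists of other adhesion genes, 1 point per gene by its brightest probe set, for Xid (left) and Btk KO (right). Bars are list medians and named red points passed limma's test with the run as a block; Vcam1 and Cadm1 are red in both panels.

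The transcripts whose pattern over the 6 arrays was most like each member were named by Pearson's r against 6671 other probe sets with 1 gene symbol, as a description. Itgb2 was closest to Dda1 (r = 0.996), Pld3 (r = 0.993) and Cand1 (r = 0.991). Itgb1 was closest to Sema4a (r = 0.996), Itgal to Smpd1 (r = 0.987), Itga4 to Gpx1 (r = 0.997) and Itgb7 to Zfp787 (r = 0.997). Icam1 was closest to Mprip (r = 0.992), Icam2 to Ext1 (r = 0.984) and Cd44 to Azin1 (r = 0.980). All of these arrays share runs, and the neighbours were picked from all 6671.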

How the data were processed

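The deposited values were linear intensities, 1 per probe set and array. Their 2% trimmed mean was 100.06 on every array, so the deposited table had been scaled. The software and summary method are not stated in the labels or files used here. Per the file headers, the scanner files gave chip lot and hybridisation day (3 arrays per lot), and no measurement was taken from them. Probe names came from the platform annotation, with 10833 of the 12422 probe sets having 1 symbol, 396 several and 1193 none. Of those with 1 symbol, 10817 were found in a gene table of GRCm38.p6.

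Before log2, 6 was added to each intensity (the 20th percentile, rounded). Probe sets with a mean log2 value below the 40th percentile (mean intensity about 19.8) were left out, which kept 7453 and removed 4969, beside 66 controls. A gene that is bright in 1 group only can pass through that group. Differences were tested in 1 model of 3 group means with limma 3.58.1 (lmFit, eBayes with an intensity trend; R 4.3.3), two-sided, with 3 residual degrees of freedom and Benjamini-Hochberg adjustment over the 7453. The 3 residual degrees of freedom are counted before eBayes moderates the spread with that of the other probe sets. Precision is limited by having 2 arrays per group.

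Replicate numbers mark a shared set of chips per the labels. Deviations from the group means were correlated between groups within a set (0.31 between CBA and Xid, 0.37 between CBA and Btk KO, 0.44 between the mutants), and a fit with the set as a block is given where it matters. Other settings were quantile normalization, median centring, other pseudocounts and filters, no trend, only the groups compared and each array left out. The run difference was added after the data were seen. The members and lists were chosen with earlier results of these data known. The rule names all 9 members, each list gene that passed in any comparison, otherwise the 2 of smallest p in Btk KO against CBA per list, and lineage markers. Has3, Itgax, Itgav, Cd9 and the ligands other than Vcam1 were named after their values were seen. Integrin tail motifs were not analysed here.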

Additional observations from a re-analysis of the deposited data

Results flagged for a closer look

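Cd44 values lay below CBA in Xid and above it in Btk KO in both runs, but neither difference from CBA passed limma's test (adjusted p = 0.999 and 0.95). The difference of Btk KO from Xid was 0.90 on the log2 scale in a limma test whose adjusted p was 0.998, or 0.57 with the run as a block, so it did not pass the correction. Btk KO was higher in 2 of 2 runs, and the highest Cd44 intensity was 37.1.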

How the results depend on the processing

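None of the 12 probe sets of the adhesion genes passed under any setting that was run. The lowest adjusted p was 0.12, for Itgb2 in the mean of both mutants with the block and without the Btk KO array of run 1. Of 736 results of single probe sets under alternatives, 723 kept their direction or turned sign by less than their error, and 13 moved further, 0 of them from a called value. For the median over the genes, leaving out 1 array gave -0.13 to 0.14 for Xid against CBA, -0.04 to 0.40 for Btk KO against CBA, -0.16 to 0.63 for Btk KO against Xid and -0.12 to 0.12 for the mean of both mutants. The replicate block together with leaving out the Btk KO array of run 1 gave 0.37 for Btk KO against Xid. The replicate block alone left each group difference as it was, called 0 of the 12 probe sets, and among the named adhesion genes changed no other call than those of Vcam1, Itgb5, Cadm1 and Cd47.

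The counts of called probe sets over the whole array moved by more than 1.5 times. Without the block, leaving out 1 array gave 0 to 9 for Xid against CBA, 0 to 145 for Btk KO against CBA (145 without the Btk KO array of run 2), 0 to 29 for Btk KO against Xid and 0 to 39 for the mean of both. Other settings gave 3 to 76, 0 to 166, 0 to 14 and 0 to 165. The cause was not tested. Dim probe sets of Itgam and Cd44 set the limit of what can be compared.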
